A study of Mus musculus with 8 samples.

Results

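The genes that hold hepatocytes together and give them their internal filaments, 10 in all, were followed across 4 groups of mouse cells. They were the keratins Krt8 and Krt18, the cadherins Cdh1 and Cdh2, the tight junction genes Cldn1, Cldn3, Ocln and Tjp1, and the connexins Gjb1 and Gjb2. The 10 genes were chosen by name among 63329 gene names on 2 array designs, and every one of them had a probe on both designs. The question was whether cells labelled as marrow-derived and sorted from a liver carried the adhesion and filament transcripts of an epithelium. At 1 month, transcripts of 9 of the 10 genes were called higher than in marrow, where 28.8% of all genes tested were. Only 5 of the 10 were well above background on both marrow arrays. The others entered the test through the 1-month arrays alone, so this count is a description. At 5 months none of the 10 was called against primary hepatocytes, where 0.552% of all genes tested were called in either direction. Both 5-month arrays lay above both primary arrays for Cdh2, Cldn3 and Gjb1. With 2 against 2 arrays such a separation has an exact permutation p of 0.33.

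Hepatocytes are polarised epithelial cells whose neighbours face each other across a bile canaliculus. Tight junctions, built from claudins, occludin and the scaffold ZO-1, seal that channel from the blood side. Cadherins hold the cells together, connexins form gap junctions through which small molecules pass, and keratins 8 and 18 form the only keratin pair of the mature hepatocyte. Blood progenitors in marrow are largely not organised in such sheets.

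The Lin- BM cells were bone marrow cells depleted of lineage-positive cells with magnetic beads and antibodies to lineage antigens such as Ter119 and CD11b. Donors were female C57Bl6/J-Tg(UBCGFP)30Scha/J mice, in which the ubiquitin C promoter drives eGFP in most cells. Hosts were male hemophilia A mice, B6;129S4-F8tm1Kaz/J, whose livers had been injured with acetaminophen. Donors and hosts were 6 to 8 weeks old at transplantation. BM-derived hepatocytes were eGFP+ cells sorted from perfused host livers 1 or 5 months later. Primary hepatocytes were the positive control, and their strain, sex and age on the arrays are not given in the sources used here. Each group had 2 arrays, and each experiment pooled cells of 3 mice, so the p-values measure the spread between 2 pools. An eGFP+ sort does not tell a donor cell from a host cell that fused with one.

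Lin- BM cells (replicates 3 and 4) and 1-month BM-derived hepatocytes (replicates 1 and 2) were hybridised on 1 slide. Primary hepatocytes (replicates 2 and 4) and 5-month BM-derived hepatocytes (replicates 1 and 3) were on a second slide of another design. Between 47.7% and 58.6% of probe spots were well above background on the 8 arrays. The hepatocyte marker list fitted the labels: on both slides all 7 of 7 listed genes were well above background in every hepatocyte array, against 3 of 7 in each Lin- array. One pair of sex-linked readouts did not follow the donors' sex. Xist, which is transcribed from the inactive X of female cells, read 3.81 and 2.74 in Lin- BM cells and was not well above background on any of the 6 hepatocyte arrays. The Y-linked Ddx3y and Eif2s3y were well above background on all 8 arrays, Lin- BM cells included. The 4 arrays labelled BM-derived thus did not carry the Xist signal of female donor cells, and whether the cells on them came from the donors was not tested here.

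Levels are given as log2 of the processed signal minus the array's own 75th percentile, so 0 is the 75th percentile and each unit is a doubling. Levels of different probes cannot be set against each other. Within a slide every probe was usable. Across slides only probes of identical sequence were compared, and 4 of the 10 genes had one. The first 30 of the 60 bases of these 4 probes are shown, because every comparison across slides rests on them.
Krt18 probe: ggatggcagagtggtgtccgagactaatga
Cdh1 probe: acattctaacgggaaaaaggagacaagacc
Cldn1 probe: ctctctcaaatgaggagttcctaaagctta
Gjb2 probe: caagttgaaccattaccactatgccttatg
In the mm9 build the Krt18 probe lies at chr15:101862341-101862400, the Cdh1 probe at chr8:109193812-109193871, the Cldn1 probe at chr16:26357372-26357431 and the Gjb2 probe at chr14:57717629-57717688. The other 6 genes were read by different sequences on the 2 slides. For Krt8, the primary and 5-month arrays also carried a second probe, whose 60 bases are one open frame within the coding sequence.
Krt8 coding probe: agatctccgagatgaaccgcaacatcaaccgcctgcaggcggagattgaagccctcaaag

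In 1-month BM-derived hepatocytes, 9 of the 10 genes rose over Lin- BM cells, and Cdh1 was the gene that did not pass the test. To be called, a gene needed both a log2 change above 0.6 and an adjusted p under 0.05. Of 28538 genes tested, 28.8% were called higher and 26.5% lower. The largest changes belonged to the connexin Gjb2, the keratin Krt8 and the claudin Cldn3. All 10 genes passed the filter on dim probes, and both 1-month arrays detected all 10 above background. Of the Lin- arrays, both detected 5 of the genes, 1 detected Cdh2, Gjb1 and Gjb2, and neither detected Cldn1 or Ocln. The median log2 change was 6.15 over the 10 genes and 0.07 over all genes tested. This median and the count of 9 are given as a description, since genes that pass the filter through 1 group alone had to differ. With Cldn1 and Ocln at their detection bounds, the median of the 10 was 5.55.

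**Figure D1:**
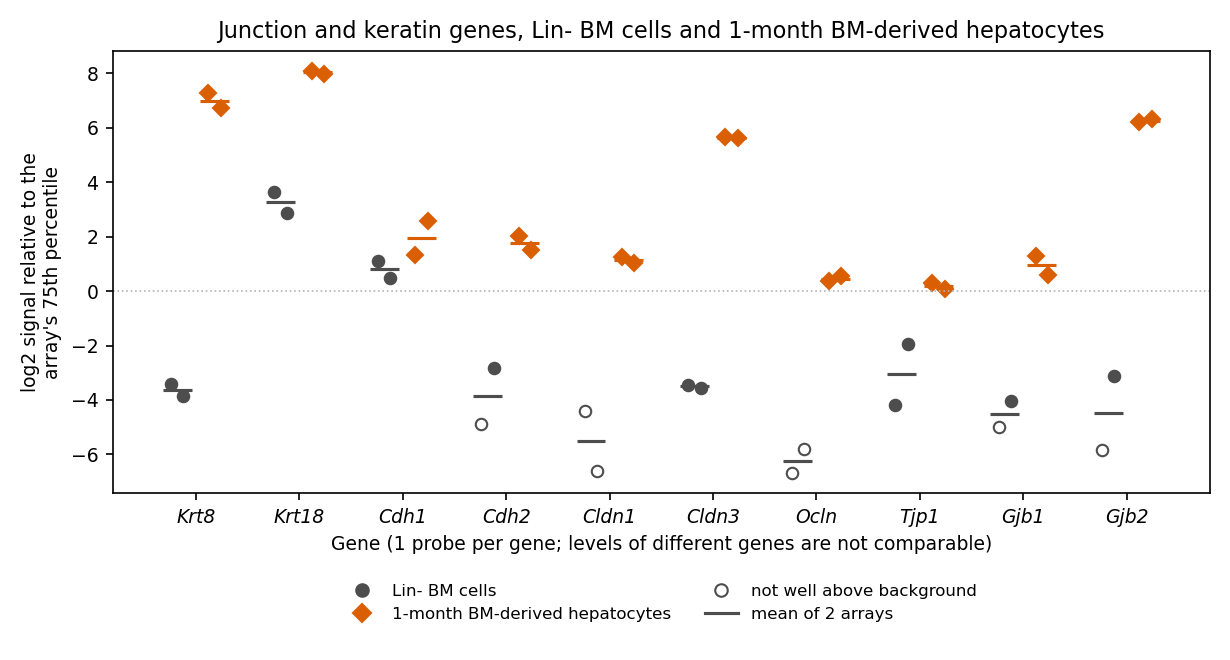
Level of each gene in Lin- BM cells and 1-month BM-derived hepatocytes (2 arrays each), as log2 signal relative to the array's 75th percentile (y axis), for the 10 genes (x axis); lines are means of 2 arrays and open symbols are not well above background. Krt8, Krt18, Cdh1, Cldn3 and Tjp1 are well above background on both Lin- arrays, and Cldn1 and Ocln on neither.

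Both keratins rose. Krt8, the type II partner of the pair, read -3.39 and -3.85 in Lin- BM cells and 7.29 and 6.72 in 1-month BM-derived hepatocytes. Its log2 change was 10.62 ± 0.34 (SE), or 1575-fold, with an adjusted p of 9.44e-05. The second Krt8 probe of that slide gave 11.19. Krt18, the type I partner, read 3.66 and 2.87 in Lin- BM cells and 8.10 and 8.00 at 1 month. Both keratins were well above background on both Lin- arrays. The change of Krt18 was 4.78 ± 0.36 or 27.5-fold (adjusted p = 8.40e-04). Thus the 2 genes, whose products assemble only with each other's type, were both called, and the Krt8 probe changed by the larger amount. They are neighbours on GRCm38 chromosome 15, with Krt8 at chr15:101996711-102004342, Krt18 at chr15:102028216-102032026 and 23873 bases between them.

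The cadherins differed in how the test came out. Cdh1, the E-cadherin of epithelia, read 1.11 and 0.49 in Lin- BM cells and 1.34 and 2.59 at 1 month. The groups did not overlap, but the 1-month arrays lay 1.25 apart and the change of 1.17 ± 0.51 did not pass (adjusted p = 0.110). It passed without 1-month replicate 1, at 1.79 (adjusted p = 0.0479). Cdh2, the N-cadherin that hepatocytes carry beside E-cadherin, read -4.90 and -2.83 in Lin- BM cells, of which only the second was well above background. It read 2.02 and 1.53 at 1 month, a rise of 5.63 ± 0.73 (adjusted p = 0.00364).

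All 4 tight junction genes rose. Cldn3, a sealing claudin, had the tightest arrays of the 10 genes, with -3.43 and -3.55 in Lin- BM cells and 5.66 and 5.61 at 1 month. Its change was 9.13 ± 0.25, 559-fold (adjusted p = 7.31e-05). Cldn1, the other sealing claudin, read -4.41 and -6.63 in Lin- BM cells, neither well above background, and read 1.26 and 1.05 at 1 month. Only a bound can be given, at least 49.8-fold higher, with measured means of -5.52 and 1.16 (adjusted p = 0.00252). Each bound sets the bright group's mean against the lowest signal that counted as well above background, or the dim probe's own where that was higher. The second Cldn1 probe, the one printed above, was also dim on both Lin- arrays and bright on both 1-month arrays.

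Ocln, which encodes the membrane protein occludin, read -6.69 and -5.80 in Lin- BM cells, neither well above background, and 0.37 and 0.54 at 1 month. It was at least 31.0-fold higher (adjusted p = 4.12e-04, measured means -6.25 and 0.46). Tjp1, which encodes the scaffold ZO-1 and is expressed in many cell types, read -4.17 and -1.93 in Lin- BM cells and 0.29 and 0.08 at 1 month. Its Lin- arrays lay 2.24 apart, a wider gap than that of 98.8% of genes in that group. The rise of 3.24 ± 0.76 was called (adjusted p = 0.0205) but was lost without 1-month replicate 1 (adjusted p = 0.0853), without 1-month replicate 2 (adjusted p = 0.0773) and by the methods' t-test. Ocln and Tjp1 each had another probe that was not well above background on any array of the slide.

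Both connexins rose. Gjb1 encodes connexin 32, the main gap junction protein of hepatocytes. It read -4.98 and -4.02 in Lin- BM cells, the first not well above background, and 1.30 and 0.61 at 1 month, a change of 5.46 ± 0.45 (adjusted p = 0.00111). Gjb2, which encodes connexin 26, read -5.84 and -3.10 in Lin- BM cells, the first again not well above background. It was near 6 on both 1-month arrays, 6.22 and 6.31. With 1 probe per gene, the change of 10.74 ± 0.91 was the largest of the 10 genes and had the widest error (adjusted p = 0.00117). The other Gjb2 probe was not well above background on either Lin- array and was so on both 1-month arrays. Its measured change was 6.52. With the mean over probes Gjb2 was 8.63, below Krt8 at 10.90 and Cldn3 at 9.13, so its rank depended on the probe. The size of the change rested on single Lin- arrays for 3 called genes: without Lin- replicate 3 it was 9.37 for Gjb2, 4.60 for Cdh2 and 2.12 for Tjp1, and without Lin- replicate 4 it was 12.11, 6.67 and 4.36.

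The changes were smaller under another background correction, and the same 9 genes were called. Normexp with an offset of 50 was used in place of the subtraction by Agilent Feature Extraction. The 9 called genes then ranged from 1.65 for Tjp1 to 7.98 for Krt8. All 9 were smaller than with the Feature Extraction subtraction. Gjb2 was 7.05, so that Krt8 had the largest change, and Cdh2 was 3.01, Cldn1 2.76, Gjb1 2.52 and Ocln 2.27. The offset was not varied, so its part in the smaller changes was not tested.

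The neighbours of these genes in the junction were read from lists of other components, whose counts stand against 28.8% higher and 26.5% lower over all genes tested. In the tight junction list 16 of 23 tested genes rose and 1 fell at 1 month, with a median change of 2.72. Cldn2, a claudin that forms a pore for cations and water, was at least 80.7-fold higher. Cgnl1, which encodes a cingulin-like linker, rose by 7.85 ± 0.30, and Crb3, an apical polarity gene, by 7.23 ± 1.12. In the adherens junction list 8 of 13 rose and 0 fell. The nectins, immunoglobulin-like adhesion molecules beside the cadherins, led it with changes of 6.38 for Nectin3, 5.58 for Nectin1 and 5.15 for Nectin2. Ctnnb1, the β-catenin that binds cadherin tails, stayed uncalled with means of 3.99 in Lin- BM cells and 4.02 at 1 month.

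Desmosome and plakin genes split, with 7 of 11 higher and 4 lower. Dsg2 and Dsp, which encode the desmosomal cadherin desmoglein 2 and desmoplakin, were at least 91.4-fold and 188-fold higher, and Pkp2, which encodes plakophilin 2, rose by 7.52, while Pkp3, Plec, Evpl and Macf1 fell. Beyond Krt8 and Krt18, 7 of the 16 genes of the keratin and intermediate filament list passed the filter on dim probes. Of these 2 were higher and 2 lower, close to the shares over all genes. The 2 that fell were not keratins: Vim, the vimentin of mesenchymal and blood cells, fell by 4.88 and the nuclear lamin Lmnb1 by 4.81, while Nes, which encodes nestin, rose by 2.54 and Krt17 by 1.16. Of the 14 genes of the connexin and pannexin list only 4 passed the filter, with 1 higher and 1 lower, again close to those shares. There Gja4, a connexin of endothelium, rose by 3.97 and Panx1 fell by 6.59. In the list of epithelial regulators and surface genes 10 of 18 were tested, of which 6 rose and 4 fell. Esrp2, an epithelial splicing regulator, rose by 7.59 and Cd24a, a surface protein of progenitors and many epithelia, was at least 720-fold lower.

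**Figure D2:**
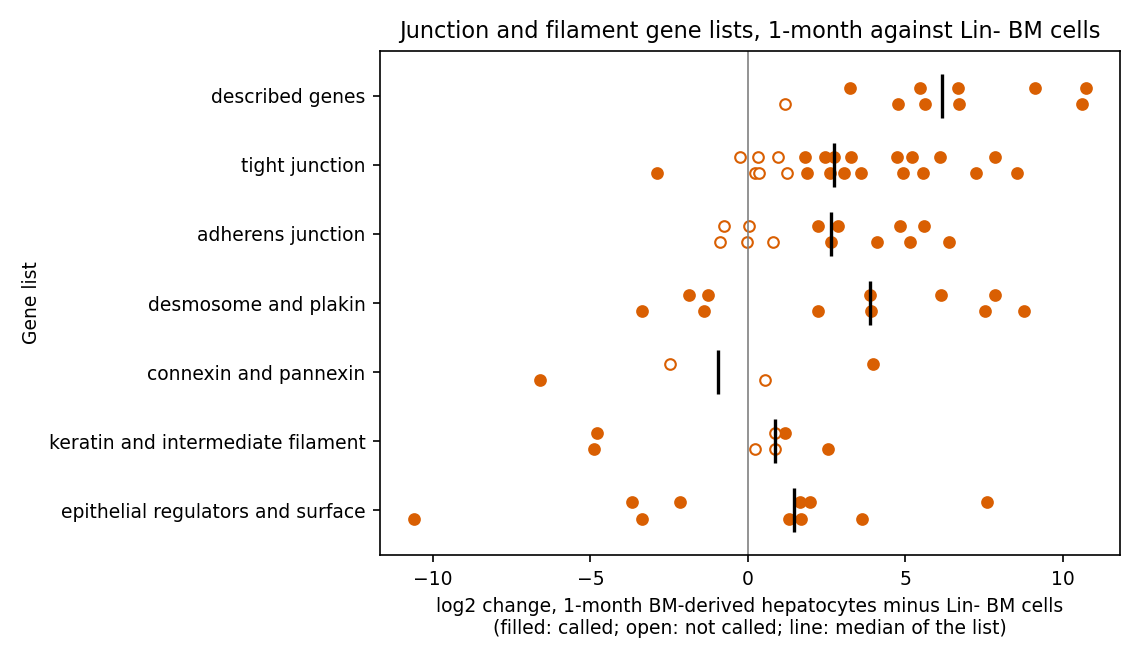
Log2 change from Lin- BM cells to 1-month BM-derived hepatocytes (x axis) of the 10 described genes and of 6 lists of related genes (y axis), with each tested gene as a point, filled where called, and the median as a line. The tight junction and adherens junction lists lie mostly to the right of 0, with medians of 2.72 and 2.65 (2.72 and 2.22 with undetected genes at their bounds), and the connexin, filament and regulator lists lie on both sides.

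Genes of some other liver cells moved with the 1-month group as well. Of the sinusoidal endothelium markers 6 of 7 rose, and their summed signal, in units of the array's 75th percentile, went from 1.76 and 2.37 in Lin- BM cells to 60.9 and 71.3. Of the Kupffer cell markers 4 of 6 rose, from 1.07 and 3.53 to 9.14 and 39.2. Stellate cell markers split, with 2 of 5 tested genes higher and 2 lower. The summed stellate signal was 21.0 and 151 in Lin- BM cells and 3.41 and 6.78 at 1 month. Of the 7 cholangiocyte markers 3 were tested, of which 2 rose and 1 fell, and the summed signal of the 7 was 19.6 and 24.5 in Lin- BM cells and 2.50 and 1.15 at 1 month. Bile duct cells express most of the 10 genes too. On each 1-month array 3 of the 7 cholangiocyte markers were well above background. Their defining keratins Krt7 and Krt19 were so on none of the 8 arrays, and Epcam on 1, a Lin- array. The part of endothelial, Kupffer, stellate and bile duct cell RNA in the results was not tested. In bulk RNA, more cells of a type and more RNA per cell cannot be told apart.

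At 5 months, none of the 10 genes was called against primary hepatocytes on the same slide, and of 19934 genes tested 0.552% were called in either direction. That count rested on single arrays. It went from 73 higher and 37 lower to 0 when 1 of the 5-month arrays was left out, whichever it was, to 940 and 593 without primary replicate 2 and to 1093 and 531 without primary replicate 4. At an unadjusted p under 0.05 there were 2, Cdh2 and Gjb1, and the same 2 passed the methods' t-test. All 10 genes were well above background on all 4 arrays. The 10 changes ran from -0.14 to 0.88, 6 of them positive. A p that misses the threshold does not show equal levels, and the 95% intervals below give the range that remains.

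**Figure D3:**
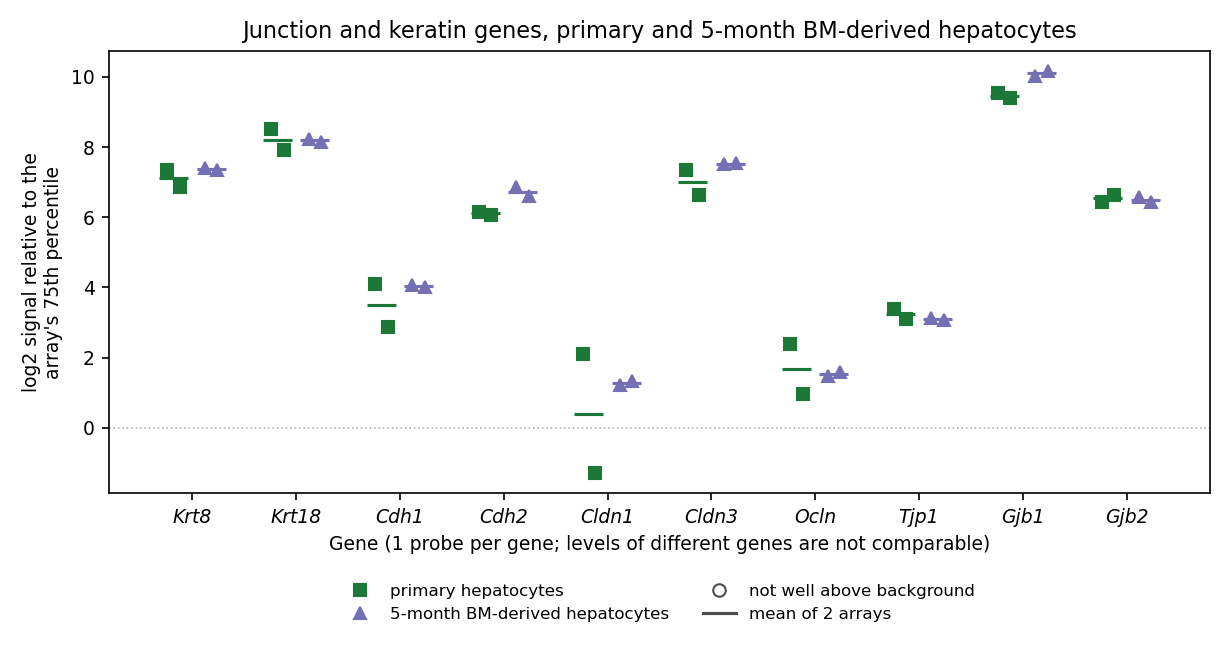
Level of each gene on the 4 arrays of primary and 5-month BM-derived hepatocytes, as log2 signal relative to the array's 75th percentile (y axis), for the 10 genes (x axis); lines are means of 2 arrays. The 5-month arrays lie within 0.26 of each other for every gene, with the widest gap for Cdh2, whereas the primary arrays lie apart for Cldn1, Ocln and Cdh1.

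Krt8 read 7.36 and 6.85 in primary hepatocytes and 7.40 and 7.36 at 5 months, a change of 0.27 (95% interval -0.43 to 0.98). Its coding probe printed above gave -0.10. Krt18 read 8.51 and 7.91 against 8.24 and 8.14, a change of -0.02 (95% interval -0.79 to 0.74). For both keratins the groups overlapped.

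Cdh1 read 4.10 and 2.88 in primary hepatocytes and 4.06 and 4.0 at 5 months. This design holds the Cdh1 probe 10 times on each array, and the SD between those spots was between 0.04 and 0.13. The gap of 1.23 between the primary arrays was therefore far wider than the spread of spots within an array. The Cdh1 change was 0.54 with a 95% interval of -0.69 to 1.77. Cdh2 read 6.16 and 6.08 against 6.85 and 6.59, with no overlap, and the interval of its change of 0.60 was 0.02 to 1.18 (adjusted p = 0.343). On the second Cdh2 probe the groups overlapped and the change was 0.34.

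Of the tight junction genes, Cldn3 read 7.35 and 6.64 in primary hepatocytes and 7.51 and 7.55 at 5 months, with no overlap. The change of Cldn3 was 0.53 (95% interval -0.30 to 1.36). Tjp1 had the least spread, with 3.39 and 3.11 against 3.14 and 3.08 and a change of -0.14 (95% interval -0.72 to 0.45). Cldn1 read 2.09 and -1.30 in primary hepatocytes and 1.22 and 1.34 at 5 months. Ocln read 2.40 and 0.95 against 1.48 and 1.6, and its second probe had the same order of arrays. For Cldn1 and Ocln both 5-month values lay between the 2 primary values. The 95% interval was -2.23 to 4.0 for Cldn1 and -1.55 to 1.28 for Ocln, too wide to exclude a change of several fold for Cldn1.

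The connexins were among the most precise. Gjb1 read 9.53 and 9.40 in primary hepatocytes and 10.04 and 10.17 at 5 months, with no overlap and a 95% interval of 0.09 to 1.19 around a change of 0.64 (adjusted p = 0.306). Gjb2 read 6.43 and 6.64 against 6.57 and 6.42, a change of -0.04 with an interval of -0.62 to 0.53. Thus a difference over 2.29-fold lay outside the 95% interval for both connexins.

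**Figure D4:**
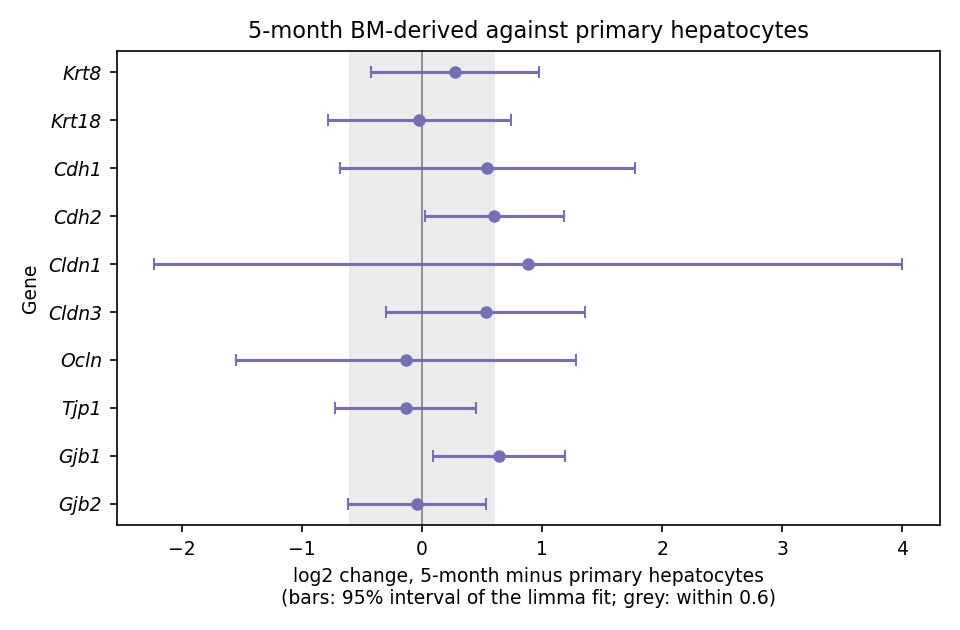
Log2 change of each gene in 5-month BM-derived hepatocytes against primary hepatocytes (x axis), with points for the estimate and bars for the 95% interval of the fit; the grey band marks changes within 0.6. The intervals of Cdh2 and Gjb1 lie above 0, and the Cldn1 interval is the widest, from -2.23 to 4.0.

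None of the junction and filament lists held a called gene in this comparison, in which 0.552% of all genes tested were called. That covered only the genes tested, 23 tight junction, 13 adherens junction, 11 desmosome and plakin, 11 keratin and intermediate filament, 6 connexin and pannexin and 6 regulator genes. The medians of these lists lay between -0.11 and 0.25, against 0.04 over all genes.

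Markers of some other cell types were mostly higher in the 5-month group, although none of these was called. The Kupffer cell markers had positive changes in 6 of 6 tested genes, with a median of 1.14 and summed signals of 21.8 and 45.8 in primary hepatocytes and 96.2 and 90.7 at 5 months. Changes were also positive for 6 of 6 leukocyte markers (median 0.50) and 5 of 6 stellate cell markers (median 0.92). Other lists did not rise: 4 of 7 sinusoidal endothelium markers were positive (median 0.05) and 1 of 4 cholangiocyte markers (median -0.49). The part of these cell types in the values of the 10 genes was not tested.

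The 2 primary arrays differed from each other in these genes, a comparison made after their values were seen. Replicate 2 was higher than replicate 4 in 9 of the 10, by a median of 0.56. The gap was 3.39 for Cldn1, wider than that of 99.1% of 19931 genes, 1.45 for Ocln and 1.23 for Cdh1, where the median gap of all genes was 0.35 in size. In the tight junction list 12 of 23 genes were higher in replicate 2, with a median of 0.13. The cholangiocyte markers were higher in replicate 2 in 3 of 4 tested genes, with summed signals of 5.79 and 3.46 against 2.65 and 2.86 at 5 months. The Kupffer cell markers were higher in replicate 4 in 6 of 6, by the summed signals above. Their part in the gap was not tested. Without replicate 2, Cldn1 was called higher at 5 months, by 2.58 (adjusted p = 0.00713), the remaining primary array being assumed to vary like the 5-month pair. Without replicate 4 the Cldn1 change was -0.81.

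The 4 probes of identical sequence set all 8 arrays side by side, on a scale with the 75th percentile of the shared probes at 0. Slide, design and scan differ between the groups compared across slides, so these cannot be told apart from group. All 4 genes were called higher in primary hepatocytes and in 5-month BM-derived hepatocytes than in Lin- BM cells, where 29.3% of 9233 genes were called higher in each case. These 2 comparisons and the one at 1 month share the same Lin- arrays.

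Krt18 read 2.29 and 1.35 in Lin- BM cells, 6.65 and 6.61 at 1 month, 6.62 and 6.47 at 5 months and 6.81 and 6.24 in primary hepatocytes. The 3 hepatocyte groups overlapped and lay 4.71 (primary) and 4.72 (5-month) above Lin- BM cells, each ± 0.36. Gjb2 showed the same shape with less spread among hepatocytes. It read -7.22 and -4.63 in Lin- BM cells, the first not well above background, and between 4.73 and 4.97 on all 6 hepatocyte arrays. The group means of Gjb2 were 4.85 at 1 month, 4.85 at 5 months and 4.85 in primary hepatocytes, the last 10.77 above Lin- BM cells (9.48 without Lin- replicate 3 and 12.07 without Lin- replicate 4).

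Cldn1 was undetected above background on both Lin- arrays. It read 0.39 and -2.97 in primary hepatocytes, -0.64 and -0.27 in the 1-month cells and -0.40 and -0.33 in the 5-month cells. It was at least 57.7-fold higher in primary hepatocytes (adjusted p = 8.79e-04) and at least 109-fold higher at 5 months (adjusted p = 5.04e-04). In the first of these the methods' t-test did not call it. Both BM-derived groups were tight and lay between the 2 primary arrays.

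Cdh1 had its lowest hepatocyte values at 1 month. It read -0.26 and -1.03 in Lin- BM cells, -0.11 and 1.20 at 1 month, 2.40 and 1.21 in primary hepatocytes and 2.44 and 2.33 at 5 months. The order of means was Lin- BM cells at -0.65, 1 month at 0.55, primary hepatocytes at 1.80 and 5 months at 2.39, and no 2 neighbours in that order differed by the test. Against Lin- BM cells the change was 2.45 ± 0.57 in primary hepatocytes (adjusted p = 0.00805) and 3.03 ± 0.57 at 5 months (adjusted p = 0.00322). The first was lost without Lin- replicate 4 (adjusted p = 0.0502) and by the methods' t-test.

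**Figure D5:**
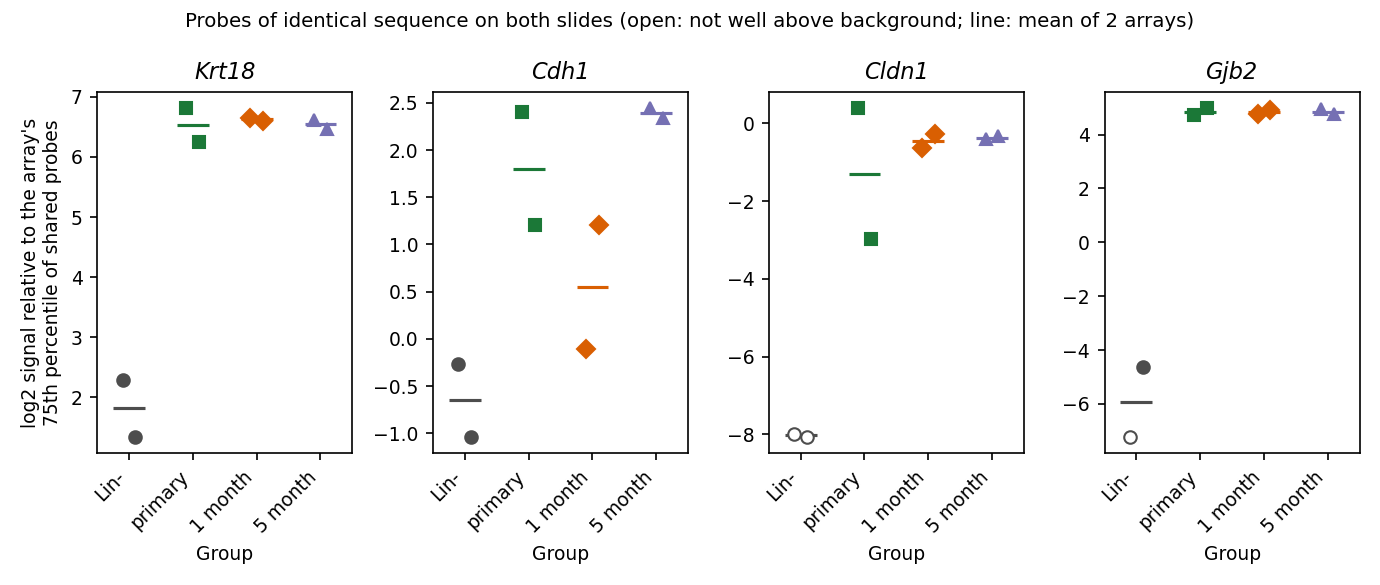
Level of the 4 genes with a probe of identical sequence on both slides, on all 8 arrays, as log2 signal relative to the 75th percentile of shared probes (y axis, scaled for each gene) by group (x axis); lines are means of 2 arrays and open symbols are not well above background. Krt18 and Gjb2 are level among the 3 hepatocyte groups. The Cdh1 means are -0.65 in Lin- BM cells, 1.80 in primary hepatocytes, 0.55 at 1 month and 2.39 at 5 months.

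Between 1 month and primary hepatocytes none of the 4 genes was called, where 16.7% of genes were called in either direction, and none reached an unadjusted p under 0.05. The Cdh1 change was -1.26 (95% interval -2.62 to 0.11). That of Cldn1 was 0.84 (95% interval -1.44 to 3.12), and it was called at 2.51 without primary replicate 2 (adjusted p = 0.0148). For Krt18 the change was 0.10 and for Gjb2 -0.0028, with intervals of -0.77 to 0.97 and -1.79 to 1.79. These intervals use 1 spread per gene over all 4 groups. The SD of Gjb2 was 1.83 in Lin- BM cells, 0.10 at 1 month and 0.17 in primary hepatocytes. Its interval thus carries the spread of the Lin- arrays, which are not in this comparison. The other 6 genes have no probe of identical sequence, and their 1-month levels were not set against primary hepatocytes.

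From 1 to 5 months none of the 4 genes was called, where 17.1% of genes were. Cdh1 came nearest, at 1.84 ± 0.57, the gene with an unadjusted p under 0.05 (adjusted p = 0.0697). It was called with normexp background correction (1.79, adjusted p = 0.0211) and with the percentile taken over all probes of each array (2.07, adjusted p = 0.0459). Both 5-month values of Cdh1 lay above both 1-month values. Krt18 and Gjb2 changed by -0.08 and 0.0003. Among junction genes outside the 10, Dsg2 was 1.84 lower at 1 month than in primary hepatocytes. At 5 months it was 2.61 higher than at 1 month. Krt14, a basal keratin, was 3.43 higher at 1 month than in primary hepatocytes and 2.93 lower at 5 months than at 1 month. Both comparisons rest on the same 1-month arrays and cross slides, so slide and group cannot be told apart. Of 6 desmosome and plakin genes tested, 1 was called higher and 1 lower in each. Of 7 keratin and intermediate filament genes, 2 were higher and 1 lower in the first and 0 and 2 in the second. Of 16 tight junction genes it was 0 and 2, then 2 and 1.

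The genes whose levels over the 8 arrays were most like each of these 4 were found by Pearson's r among 9232 genes, as a description in which slide and group are shared. They were Leap2, Fam83h and Plekhg6 for Krt18 and Cmbl, Xylb and Cfhr2 for Gjb2, each at 1.00. For Cldn1 they were Gngt1, Pnpla7 and Eps8l2 at 0.99. For Cdh1 they were the transcript NAP000014-003, Gpr135 and Gm11677, at the lower r of 0.97.

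Upstream sequence was taken from RefSeq (GRCm38.p6) for 12 start sites of 8 of the 10 genes. Cdh1 had no upstream sequence in the source used, and Cdh2 was left out of the search. The 250 bases before each start were searched on both strands for 9 motifs chosen with the results known. The E-box CAGGTG (or its reverse complement), which is bound by Snail and Zeb repressors of epithelial genes, was found before Krt8, Krt18, Ocln, Gjb1 and Gjb2, in 5 of the 12 windows, against 17.2% of all 32851 promoters. Stretches of 120 bases are shown with this E-box in capitals. Krt8 and Gjb2 were taken because they changed most at 1 month with 1 probe per gene, and Krt18 as the partner of Krt8. The first is chr15:102004343-102004462 (minus strand), the second chr15:102027966-102028085 (plus strand) and the third chr14:57104703-57104822 (minus strand).
Krt8 upstream: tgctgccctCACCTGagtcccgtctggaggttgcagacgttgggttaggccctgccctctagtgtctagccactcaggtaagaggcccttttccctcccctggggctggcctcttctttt
Krt18 upstream: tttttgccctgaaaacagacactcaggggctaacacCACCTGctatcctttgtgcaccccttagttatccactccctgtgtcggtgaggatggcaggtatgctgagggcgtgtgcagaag
Gjb2 upstream: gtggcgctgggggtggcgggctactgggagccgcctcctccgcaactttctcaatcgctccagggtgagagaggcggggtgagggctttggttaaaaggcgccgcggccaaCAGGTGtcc
The E-box began 111 bases before the Krt8 start, 214 before Krt18 and 9 before Gjb2. GGGCGG, the GC box, was found in 7 of the 12 windows, of 6 genes (32.7% of all promoters). CCAAT was found in 3 windows of 2 genes (33.8%) and TATAAA in 1 window (12.4%). GTTAAT, part of the HNF1 site, was found in 2 windows, of Cldn1 and Gjb1 (6.43%). CAAAGTCCA, TTGCNNAA, TGANTCA and AACCGGTT, read by HNF4, C/EBP, AP-1 and Grainyhead factors, were found for none, against 0.384%, 9.56%, 6.75% and 0.116% of all promoters. A match of letters is not a bound site.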

How the data were processed

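Total RNA was labelled with 1 dye (Cy3) and hybridised to Agilent whole-genome arrays of 60-base probes. The authors scanned the arrays with Agilent Feature Extraction, and the deposited intensity values (processed signals) were already background-subtracted within each array but not normalised between arrays. The authors' processed log2 values, shifted to each array's 75th percentile in GeneSpring GX per their methods, were used as an alternative. Flagged outlier spots and control spots were left out, spots of a probe were averaged, and log2 signals were centred on each array's 75th percentile. Probes were tested if some group had both of its arrays well above background. The brightest probe stood for a gene. Comparisons within a slide used its 4 arrays, and comparisons across slides used 13991 probes of identical sequence on 8 arrays with a mean per group. Tests were limma 3.58.1 in R 4.3.3 (moderated, two-sided) with Benjamini-Hochberg adjustment over all genes, and a call needed a log2 change over 0.6 and an adjusted p under 0.05. The fits were tested on simulated data. The number of arrays limits the precision, and an exact permutation test of 2 against 2 arrays cannot go below p = 0.33. Probes were named through RefSeq accessions where these matched (11700 of 13991 shared probes), otherwise by symbol or as given. No per-sample column of other samples was present (0). The genes, lists and motifs were chosen with earlier results of these data known. All 10 genes were described on every array, up to the 3 largest called genes of a list were named (others, such as Ctnnb1, Krt17 and the plakins that fell, were added after their values were seen), and the 3 most alike genes for each shared probe. Alternatives were normexp background correction (offset 50), quantile normalisation, no filter, a floor for dim signals, the mean over probes, every probe, another probe set for the percentile, the authors' values, 4 or 8 arrays in the fit, the methods' t-test and leaving out each array.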

Additional observations from a re-analysis of the deposited data

How the results depend on the processing

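Each comparison was refitted under the alternatives named in the methods. Of 460 single-gene values, 426 kept their direction and their side of the threshold. The 9 genes called at 1 month against Lin- BM cells numbered 8 by the methods' t-test and 3 of the 4 with a shared probe in the fit of all 8 arrays, where fewer genes have a value. Leaving out 1 array gave 8 to 9 there, 0 to 1 at 5 months against primary hepatocytes (1 without primary replicate 2), 3 to 4 in primary hepatocytes and 4 at 5 months against Lin- BM cells, 0 to 1 at 1 month against primary hepatocytes (1 without primary replicate 2) and 0 from 1 to 5 months. The methods' t-test called 2 of 10 genes at 5 months against primary hepatocytes and 2 of 4 in primary hepatocytes against Lin- BM cells. Over all genes it called 747 higher and 616 lower in the first of these at its own threshold and 0 after Benjamini-Hochberg, against 73 and 37 by limma, and normexp gave 104 and 54 and no filter 24 and 14. From 1 to 5 months, normexp and the other percentile each called 1 gene, Cdh1.

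Signs turned in the 3 comparisons among hepatocyte groups, and no value was called with the changed sign. Leaving out 1 array at 5 months against primary hepatocytes, the log2 change ran from -0.069 to 1.16 for Cdh1, -0.32 to 0.28 for Krt18, -0.81 to 2.58 for Cldn1, -0.86 to 0.59 for Ocln, -0.28 to 0.0026 for Tjp1 and -0.15 to 0.061 for Gjb2. At 1 month against primary hepatocytes it ran from -0.84 to 2.51 for Cldn1, -0.13 to 0.12 for Gjb2 and -0.18 to 0.39 for Krt18, and from 1 to 5 months from -0.096 to 0.27 for Cldn1 and -0.093 to 0.093 for Gjb2. With the other percentile Krt18 was 0.018, -0.17 and 0.14 in these 3 comparisons, and in the fit of all 8 arrays it was 0.018 in the first. With quantile normalisation Gjb2 was 0.048 in the second and -0.10 in the last. The cause was not tested.

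At 1 month against Lin- BM cells, normexp moved the median of all genes from 0.07 to 0.37 and the calls from 8228 higher and 7549 lower to 10214 and 6024, and no filter gave 19017 and 7446 with a median of 0.75. At 1 month against primary hepatocytes, normexp gave 1867 and 571 and no filter 3430 and 615, against 1072 and 469. From 1 to 5 months, normexp gave 705 and 2000, against 536 and 1044. Leaving out 1 array, the calls over all genes ran from 4814 to 6350 higher and 4944 to 6282 lower at 1 month against Lin- BM cells, 0 to 1093 and 0 to 593 at 5 months against primary hepatocytes, 394 to 758 and 161 to 249 at 1 month against primary hepatocytes, and 74 to 221 and 253 to 537 from 1 to 5 months. No paired analysis was possible because the groups compared share at most 1 replicate number. Signals near background limit the folds of genes dim in Lin- BM cells to bounds.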
